A study of Mus musculus with 34 samples.

Results

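The limb identity regulators described here are 6 transcription factor genes, *Tbx5*, *Tbx4*, *Pitx1*, *Isl1*, *Sall1* and *Sall4*, chosen by name from the 22040 protein-coding genes of the deposited RNA-seq table. *Tbx5* is the forelimb gene of the set, *Tbx4*, *Pitx1* and *Isl1* are the hindlimb genes, and *Sall1* and *Sall4* encode zinc finger factors of both limbs. The study asked what the loss of heterogeneous nuclear ribonucleoprotein K (hnRNPK), an RNA- and DNA-binding protein with a preference for cytosine-rich tracts, does to the mouse limb bud. mRNA was sequenced from E11.5 (embryonic day) limb buds of 3 WT and 3 conditional knockout (CKO) biological replicates. The CKO genotype was Prrx1-Cre;Hnrnpk fl/fl, in which Cre removes a block of *Hnrnpk* exons lying between loxP sites, and the labels give the controls as Hnrnpk WT with no further allele. Embryos of both sexes were used, and the number of embryos behind each RNA library is not given in the sources used here.

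Prrx1-Cre acts in the mesenchyme of the limb bud and in the calvarium, and the study's text says that it is not active in the apical ectodermal ridge and may recombine incompletely in the hindlimb. The labels call every sample limb bud cells and do not say how forelimb and hindlimb tissue were combined. In such bulk samples a smaller share of forelimb tissue, fewer cells expressing a gene and less RNA per cell cannot be told apart.

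As background, *Tbx5* starts the forelimb bud by switching on *Fgf10* in the lateral plate mesoderm, and Hox4 and Hox5 proteins act on the limb enhancer of *Tbx5*. In the hindlimb field, *Isl1* acts before *Tbx4*, and *Pitx1* is active throughout the hindlimb mesenchyme, where it promotes *Tbx4* expression and hindlimb form. *Sall4* acts downstream of *Tbx5* and in early hindlimb progenitors, and *Sall1* overlaps with it in the distal bud and recruits the NuRD corepressor complex.

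The libraries first. *Hnrnpk* lay between 185 and 195 FPKM (mapped fragments scaled by exon length and library size) in WT and between 127 and 142 FPKM in CKO, lower in every CKO library. Of all genes tested, 8.86% were likewise lower without overlap. The *Hnrnpk* difference of -0.50 on the log2 scale did not pass the test used for the members (limma, adjusted p = 0.334, or 0.0575 with the replicate number as a block). The *Hnrnpk* value covers the whole gene, undeleted exons included. The libraries held 17143034 to 24627737 reads on the listed genes, recovered from the FPKM values, and Tbx5, the key member, rested on 653 to 2134 reads per library. These reads came to 0.955, 0.968 and 0.957 times the library size implied by the FPKM values in WT replicates 1, 2 and 3. In CKO they came to 0.947, 1.107 and 1.033 times. The FPKM scaling thus did not bear the same relation to these reads in every library, and the reason was not tested. Replicate 1 of both groups stood apart from the other 4 libraries on the first principal component, which held 52.6% of the variance of the log2 values. Limb mesenchyme markers were abundant in every library, with a summed level of 361, 400 and 374 FPKM in WT and 342, 306 and 347 FPKM in CKO for 8 genes. Globin mRNA of red blood cells varied more, from 13.7% to 20.6% of all FPKM in WT and from 11.7% to 32.4% in CKO.

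*Tbx5* was the only member with a lower level in CKO than in WT in every replicate. *Tbx5* (ENSMUSG00000018263, GRCm38 chr5:119832668-119885219, plus strand, 4675 bases of merged exons) was measured at 20.3, 19.1 and 19.2 FPKM in WT replicates 1, 2 and 3. In CKO replicates 1, 2 and 3 it was measured at 15.3, 7.30 and 9.58 FPKM. The 3 WT libraries were close together and the 3 CKO libraries were both lower and more scattered, with no overlap between the groups. The means were 19.5 ± 0.649 FPKM in WT and 10.7 ± 4.13 FPKM in CKO (SD, n = 3 each), and the coefficient of variation was 3.33% in WT and 38.5% in CKO.

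Within replicate numbers, CKO *Tbx5* was 0.756, 0.386 and 0.501 times its WT partner in numbers 1, 2 and 3. On the log2(FPKM + 0.1) scale the mean difference was -0.93 with a standard error of 0.245 and a 95% interval from -1.49 to -0.36. Without regard to the replicate numbers it did not pass the test (limma, adjusted p = 0.358 over 12305 genes, unadjusted p = 0.00583). With the replicate number as a block, a pairing that rests mostly on number 1, it did (limma, standard error 0.151, adjusted p = 0.00734), ranking 71 of all genes by p. That call rested in part on number 2, since without it the blocked difference was -0.70 with an adjusted p of 0.0631, and without CKO replicate 2 alone the unblocked difference was -0.68. In the other direction, leaving out CKO replicate 1, the highest CKO library, gave -1.21 with an adjusted p of 0.0336 in the unblocked fit.

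Of all genes tested, 0.358% had a more negative log2 fold change than *Tbx5*. The CKO library with the lowest *Tbx5*, replicate 2, was also the one with the highest globin share, 32.4%, and the lowest summed mesenchyme markers. After globin genes were taken out and the libraries rescaled, *Tbx5* differed by -1.03, against a shift of -0.10 in the median of all genes. The highest CKO library for the summed mesenchyme level was below the lowest WT library, with 7 of 8 genes lower and none called with the block, and its part in the *Tbx5* difference was not tested.

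**Figure D1:**
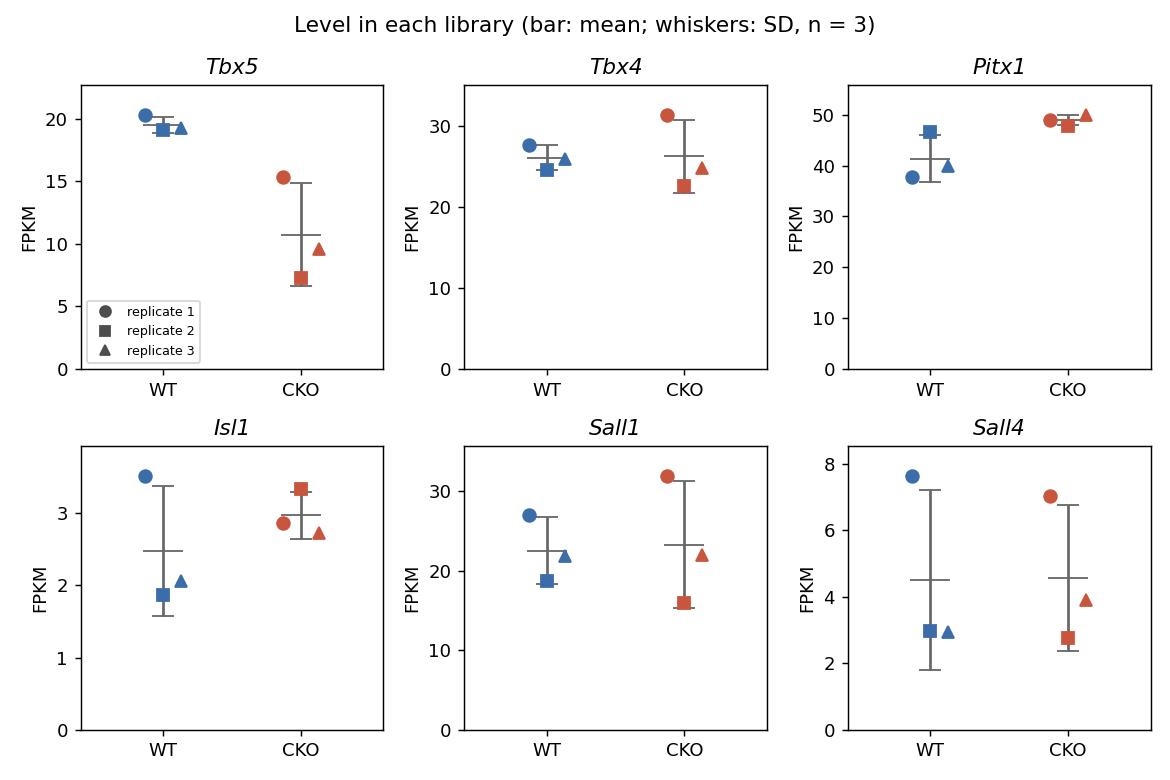
FPKM of the 6 members in each library, with symbols for replicates 1 to 3, bars at the mean and whiskers of 1 SD (n = 3). *Tbx5* was at 19.1 or more in every WT library and at 15.3 or less in every CKO library, and replicate 1 was the highest library of both groups for *Tbx5*, *Tbx4*, *Sall1* and *Sall4*.

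The hindlimb genes did not share this pattern. *Tbx4* (ENSMUSG00000000094, GRCm38 chr11:85886422-85916097, plus strand), the T-box paralogue of *Tbx5* in the hindlimb, was measured at 27.6, 24.6 and 25.9 FPKM in WT and at 31.3, 22.5 and 24.8 FPKM in CKO. The groups overlapped, with means of 26.0 ± 1.53 and 26.2 ± 4.53 FPKM (SD, n = 3 each). The log2 difference was -0.0033 with a 95% interval from -0.34 to 0.34, or from -0.24 to 0.23 with the block, so that a change of the size seen for *Tbx5* lay outside both intervals. In fold terms the blocked interval ran from 0.849 to 1.17.

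*Pitx1* (ENSMUSG00000021506, GRCm38 chr13:55825051-55836192, minus strand), the homeodomain gene of the hindlimb, stood at 37.7, 46.6 and 39.8 FPKM in WT and at 48.9, 47.9 and 49.9 FPKM in CKO. Every CKO library lay above every WT library, though by little: the means were 41.4 ± 4.67 and 48.9 ± 1.001 FPKM (SD, n = 3 each). The log2 difference of 0.25, with a standard error of 0.123, did not pass the test (limma, adjusted p = 0.663, or 0.266 with the block). Within replicate numbers it was 0.38, 0.04 and 0.32. Its 95% interval, not adjusted over genes, ran from -0.039 to 0.53, or from 0.0028 to 0.49 with the block. In the GENCODE annotation 108 exon bases of *Pitx1* are shared with a long noncoding RNA gene on the same strand and 165 with an antisense gene.

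*Isl1* (ENSMUSG00000042258, GRCm38 chr13:116298281-116309689, minus strand), a LIM-homeodomain gene of the early hindlimb field, had the lowest level of the 6 members, on 177 to 257 reads per library. It measured 3.52, 1.87 and 2.06 FPKM in WT and 2.86, 3.34 and 2.72 FPKM in CKO, the groups overlapping through WT replicate 1. The log2 difference was 0.30 with a standard error of 0.239 (limma, adjusted p = 0.814, or 0.406 with the block).

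Its direction was not shared by the replicate numbers, since *Isl1* differed by -0.29 in number 1, by 0.80 in number 2 and by 0.38 in number 3. In replicates 2 and 3 alone the difference was 0.59 and passed the test (limma, adjusted p = 0.0103), a fit in which 8.0% of all genes were called lower and 7.05% higher and in which *Tbx5* was called as well. *Isl1* also marks motor neurons, and the 6 motor neuron markers summed to 1.03 to 1.53 FPKM in WT and 1.46 to 1.61 FPKM in CKO, with *Chat*, *Slc18a3* and *Lhx3* at 0 in 1 or more libraries. The 8 general neuron markers summed to 5.61 to 7.48 FPKM in WT and 4.22 to 5.90 FPKM in CKO, with *Neurod1* at 0 in 1 or more libraries.

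**Figure D2:**
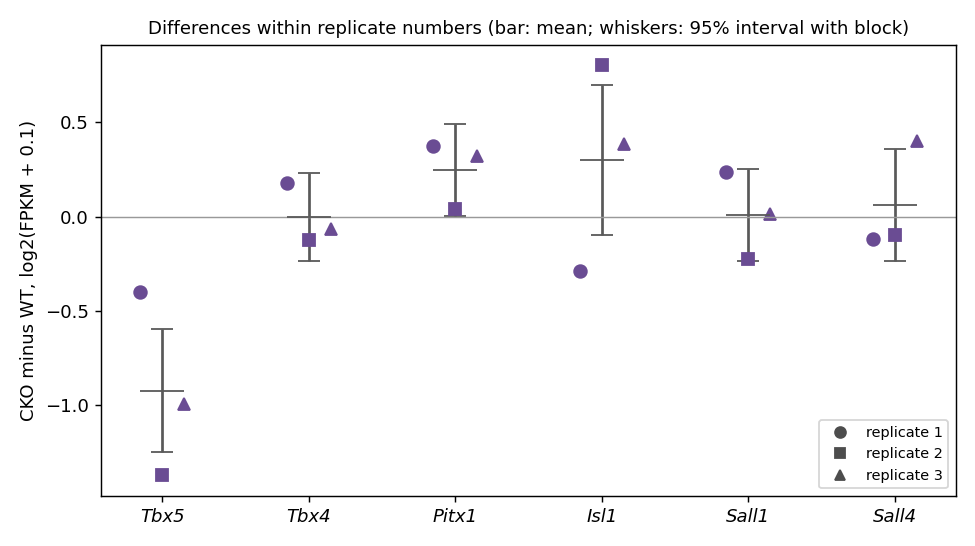
CKO minus WT difference in log2(FPKM + 0.1) within replicate numbers 1 to 3 for each member, with bars at the mean and whiskers for the 95% interval of the fit with the block. The 3 *Tbx5* points lie between -1.37 and -0.40, and those of *Isl1* lie on both sides of 0.

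Set against the hindlimb genes of the same library, *Tbx5* took a smaller place in CKO, and a ratio within a library does not depend on the scaling between libraries. The ratio of *Tbx5* to *Tbx4* was 0.734, 0.776 and 0.742 in WT and 0.490, 0.324 and 0.386 in CKO. The ratio of *Tbx5* to *Pitx1* was 0.538, 0.409 and 0.483 in WT and 0.313, 0.152 and 0.192 in CKO. For *Isl1* the ratio was 5.76, 10.2 and 9.33 in WT and 5.35, 2.19 and 3.52 in CKO.

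In each of these 3 ratios every CKO library lay below every WT library, by the narrowest margin for *Isl1* in replicate 1. The CKO ratio was 0.528 times the WT ratio for *Tbx4*, 0.444 times for *Pitx1* and 0.428 times for *Isl1* (geometric means of FPKM + 0.1). The exact permutation test, two-sided, gave p = 0.1 for each, also after adjustment over the 3 ratios, which is the smallest p that 3 against 3 libraries allow. Since all 3 share the same *Tbx5* values, they are not independent of each other or of the *Tbx5* difference itself. With *Tbx5* lower and *Pitx1* higher in every CKO library, the separation of their ratio was already fixed by those values. Paired by replicate number, the exact sign-flip test gave its own smallest value, p = 0.25. A ratio within a library shows unequal change and not which gene of the pair changed.

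**Figure D3:**
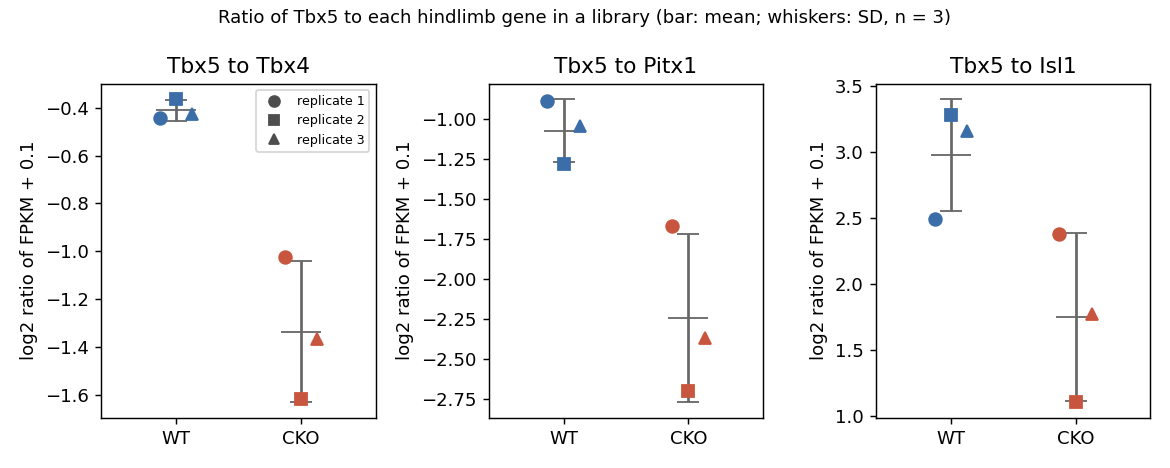
log2 ratio of *Tbx5* to *Tbx4*, *Pitx1* and *Isl1* (FPKM + 0.1) in each library, with bars at the mean and whiskers of 1 SD (n = 3). All CKO libraries lie below all WT libraries in each panel, and CKO replicate 2 is the lowest in all 3.

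*Sall1* and *Sall4* varied more between replicate numbers than between genotypes. *Sall1* (ENSMUSG00000031665, GRCm38 chr8:89027235-89044162, minus strand), a zinc finger repressor, was measured at 27.1, 18.7 and 21.8 FPKM in WT and at 31.9, 16.0 and 22.01 FPKM in CKO. *Sall4* (ENSMUSG00000027547, GRCm38 chr2:168748332-168767943, minus strand), its paralogue in progenitor cells, was measured at 7.64, 2.97 and 2.93 FPKM in WT and at 7.03, 2.77 and 3.91 FPKM in CKO. In both genes replicate 1 was the highest library of each group. For *Sall4* it was 2.59 times the mean of the other two in WT and 2.10 times in CKO. For *Sall1* it was 1.34 and 1.68 times.

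The difference between the groups was small beside this spread. *Sall1* averaged 22.6 ± 4.23 FPKM in WT and 23.3 ± 8.04 FPKM in CKO (SD, n = 3 each), a log2 difference of 0.01 with a 95% interval from -0.58 to 0.60. *Sall4* averaged 4.51 ± 2.70 and 4.57 ± 2.20 FPKM (SD, n = 3 each), a log2 difference of 0.06 with a 95% interval from -0.96 to 1.08, so that a doubling lay within the unblocked interval. The block narrowed the intervals to -0.24 to 0.25 for *Sall1* and -0.23 to 0.36 for *Sall4*, and neither passed the test (limma, adjusted p = 0.98 and 0.838 with the block). *Sall4* shares 526 exon bases with a noncoding gene on the opposite strand.

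Both libraries of replicate number 1 exceeded the other 4 libraries in 3 of the 6 members, *Tbx4*, *Sall1* and *Sall4*, against 23.0% of all genes tested. The same order was seen in *Sall3*, a further paralogue picked out after its values were seen, which measured 8.10, 3.42 and 4.21 FPKM in WT and 8.32, 2.85 and 3.86 FPKM in CKO. Across the 6 libraries *Tbx4* and *Sall1* went together with Pearson r = 0.97, *Sall1* and *Sall4* with 0.89, and *Tbx4* and *Sall4* with 0.83 (6 libraries sharing replicate numbers and red blood cell content, given as a description). *Tbx5* correlated with *Tbx4* at 0.55 and with *Pitx1* at -0.66.

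The sequences just upstream of *Tbx4* and *Sall1*, whose levels went together most closely across the libraries, and of *Isl1*, whose level did not, are shown for reference. They are taken from RefSeq (GRCm38.p6), whose promoter table held 3 of the 6 members, and are printed 5′ to 3′ on the strand of the gene, ending just before the first exon. Capitals mark the CT-element core CCCTCCC, a cytosine-rich motif known as an hnRNPK target, or its complement, and in *Isl1* the PITX-type homeodomain site TAATCC.
Tbx4: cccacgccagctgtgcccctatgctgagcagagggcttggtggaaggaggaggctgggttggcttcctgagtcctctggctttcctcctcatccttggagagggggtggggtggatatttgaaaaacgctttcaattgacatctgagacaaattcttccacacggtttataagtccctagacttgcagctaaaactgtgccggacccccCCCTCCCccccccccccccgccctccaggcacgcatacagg
Sall1: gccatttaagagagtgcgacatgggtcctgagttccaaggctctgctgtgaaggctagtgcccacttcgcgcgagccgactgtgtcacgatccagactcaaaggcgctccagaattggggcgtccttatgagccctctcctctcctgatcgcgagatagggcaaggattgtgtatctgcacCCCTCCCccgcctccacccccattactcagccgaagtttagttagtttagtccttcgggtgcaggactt
Isl1: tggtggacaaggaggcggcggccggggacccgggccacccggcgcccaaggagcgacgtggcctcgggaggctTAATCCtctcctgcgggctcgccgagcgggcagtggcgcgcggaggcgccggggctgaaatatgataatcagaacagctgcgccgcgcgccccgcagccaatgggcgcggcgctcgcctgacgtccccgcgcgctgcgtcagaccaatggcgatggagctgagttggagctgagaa
The *Tbx4* stretch is chr11:85896515-85896764, inside the gene between exons of a longer transcript, the *Sall1* stretch is chr8:89044163-89044412 and the *Isl1* stretch is chr13:116309690-116309938, both outside the gene.

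*Tbx4* and the *Sall1* stretch printed, the farthest upstream of 3 *Sall1* windows in the table, each held 1 CT-element core. The other *Sall1* windows, at chr8:89043513-89043762 and chr8:89042863-89043112 inside the gene and not printed, held 4 and 3. In *Tbx4* the core lay in an unbroken run of pyrimidines, nearly all cytosine. Of all 32851 promoter windows, 19.7% held this motif on either strand, so a match is common. The PITX-type site of *Isl1* was held by 6.25% of windows. The T-box half-site TCACACC, held by 3.33% of windows, did not occur in any of these windows. Such matches describe the letters and do not show binding.

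Between genes, compared in FPKM and hence per exon length, the order of the mean levels was the same in both groups: *Pitx1*, *Tbx4*, *Sall1*, *Tbx5*, *Sall4* and *Isl1*. In WT the values of *Tbx4* and *Sall1*, of *Sall1* and *Tbx5*, and of *Sall4* and *Isl1* overlapped. In CKO *Tbx5* no longer overlapped with *Sall1*, whose lowest CKO library was at 16.0 FPKM, above the highest *Tbx5* library at 15.3 FPKM. *Tbx5* remained above *Sall4* in CKO, 7.30 against 7.03 FPKM at the nearest.

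All 6 members passed the filter of a mean of 0.5 FPKM. None passed the test without the block, in a fit that called 0.00813% of all genes lower and 0.0569% higher. With the block *Tbx5* alone passed, lower in CKO, where 1.68% of all genes were called lower and 1.13% higher. By non-overlap of the 3 WT and 3 CKO values, *Tbx5* was lower, as were 8.86% of all genes, and *Pitx1* was higher, as were 5.63%. The study's cut-offs, at least a 2-fold difference and an unadjusted p under 0.05, were applied to the limma fit without the block. No member met them, and of all genes tested 30 met them as lower and 52 as higher in CKO. The study's own calls were not rerun.

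No Hox gene of the anterior or the posterior set passed the test, with or without the block, and a difference between the sets was not tested. With no filter on low values, the 7 Hox4 and Hox5 genes, the group acting on the *Tbx5* enhancer, had a lower mean log2 level in CKO, with a median difference of -0.46 against 0.0014 over all genes above 0. *Hoxd4*, at 0.682 FPKM in WT and 0.440 FPKM in CKO, passed the filter only through WT, and over the other 6 the median was -0.41. By limma, 1 of the 7 was at an unadjusted p under 0.05, against 8.31% of all genes tested. *Hoxc5* was the member of this group with no overlap, at 2.57, 3.04 and 2.84 FPKM in WT and 2.22, 1.89 and 1.83 FPKM in CKO, a log2 difference of -0.49 (limma, adjusted p = 0.425, or 0.105 with the block). Among all genes tested, 8.86% were lower in CKO without overlap.

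Of the 5 posterior *Hoxc* genes, which are more active at hindlimb level, 4 had a higher and 1 a lower mean log2 level in CKO with no filter, with a median difference of 0.28. By limma, 1 of the 4 tested was at an unadjusted p under 0.05, against 8.31% of all genes tested. *Hoxc10*, a hindlimb gene, measured 18.5, 18.1 and 17.8 FPKM in WT and 22.8, 20.1 and 23.4 FPKM in CKO, without overlap (log2 difference 0.28, limma adjusted p = 0.561, or 0.172 with the block). *Hoxc13* and *Hoxc12* were both near the filter and differed in opposite directions. *Hoxc13* measured 0.410 FPKM in WT and 0.633 FPKM in CKO on average (log2 difference 0.59), without overlap, and passed the filter only through CKO. Non-overlap with CKO higher, as in *Hoxc10* and *Hoxc13*, was seen in 5.63% of all genes tested. *Hoxc12*, below the filter and not tested, measured 0.269, 0.284 and 0.756 FPKM in WT and 0.161, 0.152 and 0.488 FPKM in CKO, lower in CKO within each number (log2 difference -0.55).

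**Figure D4:**
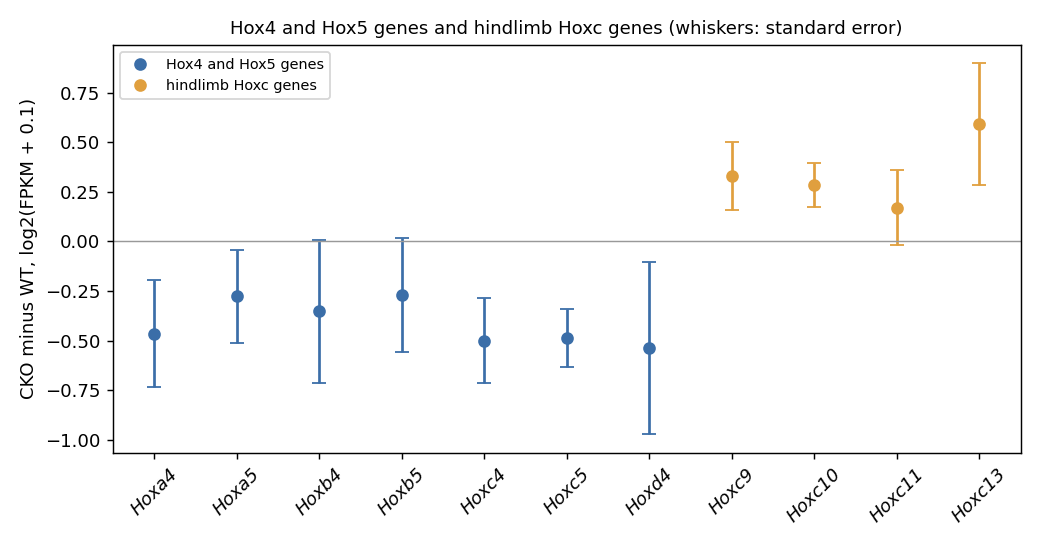
CKO minus WT difference in log2(FPKM + 0.1) for the Hox4 and Hox5 genes and the posterior *Hoxc* genes tested, with whiskers of 1 standard error. The Hox4 and Hox5 genes lie below 0 and the *Hoxc* genes drawn above it, but none passed the test, *Hoxd4* and *Hoxc13* passed the filter only through the group where they were higher, and *Hoxc12*, lower in CKO, was not tested and is not drawn.

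Of 22 genes of the limb outgrowth network, 10 had a higher and 12 a lower mean log2 level, with a median of -0.08. None passed the test without the block (limma), and 2 of 22 were at an unadjusted p under 0.05, against 8.31% of all genes. With the block 2 of 22 fell in CKO, *Aldh1a2* and *Ldb2*, where 1.68% of all genes were called lower. *Aldh1a2*, which encodes the enzyme that makes retinoic acid, an inducer of *Tbx5*, measured 4.93, 11.7 and 11.3 FPKM in WT and 2.73, 7.18 and 7.30 FPKM in CKO. Its level was lowest in replicate 1 of both groups, the reverse of *Sall4*, and lower in CKO within each number (log2 difference -0.72, limma adjusted p = 0.00497 with the block and 0.739 without).

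*Ldb2*, a cofactor of LIM-homeodomain proteins such as Isl1, averaged 11.1 ± 0.851 FPKM in WT and 7.99 ± 0.574 FPKM in CKO (SD, n = 3 each) without overlap. Its log2 difference was -0.47 (limma, adjusted p = 0.0397 with the block and 0.341 without), and the blocked call was lost without number 2 (adjusted p = 0.177) or number 3 (0.303). *Fgfr2*, the gene of the receptor that answers Fgf10 in the ectoderm, did not overlap either, at 6.02 ± 0.256 and 4.59 ± 0.564 FPKM (SD, n = 3 each). Its log2 difference was -0.39 (limma, adjusted p = 0.0927 with the block and 0.480 without). This value covers the whole gene in all cells of the sample and not the ectoderm alone. Such non-overlap with CKO lower was seen in 8.86% of all genes tested. *Fgf10* itself, the mesenchymal target of *Tbx5*, was at 5.80 ± 0.644 and 5.97 ± 0.874 FPKM (SD, n = 3 each), a log2 difference of 0.04 (limma, adjusted p = 0.971). The study, by contrast, reported lower *Fgf10* in CKO limb buds of this stage by in situ hybridization and qPCR. It reported the same by these methods for *Shh* and *Fgf8*, which are also in this network. Their log2 differences here were 0.03 and 0.16 (limma, adjusted p = 0.983 and 0.890). Why these measures differ was not tested.

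None of the 7 paralogues of the members passed the test (limma, with or without the block, 0 at an unadjusted p under 0.05), 3 of them higher and 4 lower with a median of -0.10. Without *Isl2*, which passed the filter only through WT, the median was 0.05. *Sall2* was the one without overlap, at 15.4 ± 0.418 FPKM in WT and 17.8 ± 2.02 FPKM in CKO (SD, n = 3 each), higher in CKO without overlap as were 5.63% of all genes. Of the 11 NuRD subunits, 9 were higher and 2 lower with a median of 0.06, and none passed (limma, with or without the block, 1 at an unadjusted p under 0.05, against 8.31% of all genes). The subunit gene *Mbd3* did not overlap, at 70.9 ± 4.08 and 56.7 ± 5.67 FPKM (SD, n = 3 each; log2 difference -0.33, limma adjusted p = 0.561, or 0.174 with the block), lower in CKO without overlap as were 8.86% of all genes.

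The genes most like each member across the 6 libraries were found by Pearson r of log2(FPKM + 0.1), as a description over libraries that share replicate numbers and blood content. *Sept3* (r = 0.998) and *Adpgk* (0.997) were nearest to *Tbx5*, and *Ap3d1* (0.994) was among the nearest to *Tbx4*. *Pafah2* (0.978) and *Kctd5* (0.977) were nearest to *Pitx1*, and *Cep57* (0.989) and *Ddx3x* (0.986) to *Isl1*. *Mbtps1* and *Rasa2* (0.996 each) were nearest to *Sall1*, and *Car9* (0.999) and *Trim71* (0.997) to *Sall4*. *Tbx5* had 194 genes and *Pitx1* 13 genes with r over 0.95, so a high r is common among 6 libraries.

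Other cell types moved between libraries as well. Muscle precursor markers summed to 8.96, 24.2 and 21.7 FPKM in WT and 19.7, 27.7 and 25.1 FPKM in CKO, and endothelial markers to 30.3, 21.0 and 23.8 FPKM and 15.0, 24.1 and 21.5 FPKM. Ectoderm markers ranged from 36.3 to 71.1 FPKM in WT and from 41.2 to 72.9 FPKM in CKO, lowest in replicate 1 of both groups, and macrophage markers from 13.8 to 23.3 and from 16.4 to 27.6 FPKM. The erythroid sum, of 10 genes, was lowest in replicate 1 of both groups, where *Sall4* was highest. The part of these cell types in the members' levels was not tested.

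**Figure D5:**
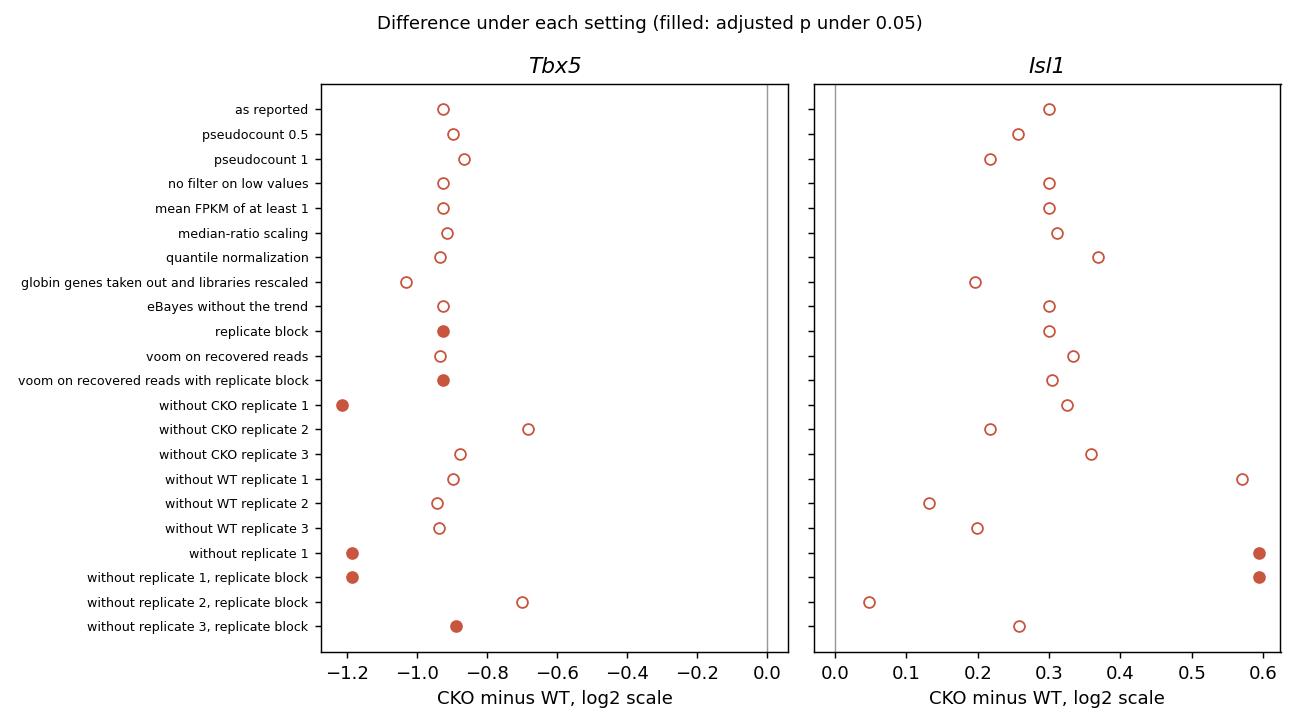
CKO minus WT difference of *Tbx5* and *Isl1* on the log2 scale under each processing setting, filled where the adjusted p is under 0.05. *Tbx5* lies between -1.21 and -0.68 throughout, and *Isl1* between 0.05 and 0.59.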

How the data were processed

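RNA-seq of 3 WT and 3 CKO limb bud samples was used; its chromatin assays were not analysed here. Libraries were stranded, and the authors deposited FPKM per gene in 1 table; the submitters' notes name cutadapt 2.5, HISAT2 2.1.0, featureCounts 1.6.3 and mm10, without saying which data type each served. The members and gene lists were chosen with earlier results of these data known.

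Genes with a mean of at least 0.5 FPKM (12305 of 22040) were tested with limma 3.58.1 (R 4.3.3, trended variance) on log2(FPKM + 0.1), a scale that understates the change of low genes, with Benjamini-Hochberg adjustment over all of them and a threshold of 0.05. The code was tested on simulated data. The study names no covariate, so the fit without a block was the primary one. WT and CKO libraries of the same replicate number deviated together from their group means (r = 0.636, 0.443 and 0.266 for numbers 1, 2 and 3). Libraries of numbers 2 and 3 deviated together across numbers as much (WT 2 with CKO 3, r = 0.495; WT 3 with CKO 2, r = 0.307), while number 1 did not go with either (r from -0.597 to -0.375), so that the pairing rests mostly on number 1. Every same-number r being over 0.1, a fit with the number as a block was run beside the primary one, and blocked values are given where a call changes. WT 2 with CKO 3 and WT 3 with CKO 2 were over 0.1 too, so that this cut-off does not show a pairing. The pairing was read from the same values that the blocked fit then tested. What a shared number stands for is not given in the sources used here. The limma p-values set a difference against the spread between these samples, and in the blocked fit against the spread of the within-number differences.

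Reads were recovered from FPKM with exon lengths of GENCODE vM21, which held 99.86% of the identifiers; 92.66% of genes came out whole in all 6 libraries within 0.1 read. Ratios were tested with exact permutation tests (scipy 1.17.1). Alternatives were the pseudocount, the filter, the scaling, the variance model, the block, voom on recovered reads and leaving out libraries; the block with 1 replicate number left out was added after seeing the data. Genes named beyond the members and *Hnrnpk* were those of the gene lists with an adjusted p under the threshold in either fit or with groups that do not overlap, and the 2 genes most correlated with each member, 1 of which is not reported here. *Fgf8*, *Fgf10*, *Hand2*, *Hoxc12*, *Hoxd4*, *Isl2*, *Lmx1b*, *Sall3*, *Shh* and the marker genes at 0 were named after their values were seen.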

Additional observations from a re-analysis of the deposited data

How the results depend on the processing

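The direction of *Tbx5*, *Pitx1*, *Isl1* and of the 3 ratios held under every alternative run. *Tbx5* passed the test with the replicate block (-0.93, adjusted p = 0.00734) and with voom on recovered reads with the replicate block (-0.93, adjusted p = 2.96e-04), and leaving out libraries moved it from -1.21 to -0.68, calling it without CKO replicate 1, without replicate 1 of both groups (-1.19, also with the replicate block) and, blocked, without replicate 3 (-0.89). The adjusted p of *Tbx5* in the other settings reached 1.0. *Isl1* ranged from 0.13 to 0.59 on leaving out libraries, with 0.05 when blocked without replicate 2, and was called without replicate 1 of both groups, blocked or not. The blocked fit without replicate 1 called 1084 of the 12305 genes lower and 1196 higher. *Tbx4* turned to 0.0079 under median-ratio scaling and, with the replicate block, to 0.057 without replicate 2 and 0.027 without replicate 3, and ranged from -0.14 to 0.10 on leaving out libraries. *Sall1* turned to -0.016 under quantile normalization and to -0.10 with globin genes taken out, to -0.11 without replicate 1 with or without the replicate block, and ranged from -0.25 to 0.25. *Sall4* turned to -0.041 with globin genes taken out and to -0.11 without replicate 3 with the replicate block, and ranged from -0.29 to 0.51. Relative to the shift of -0.10 that taking out globin genes gave the median of all genes, *Sall1* stood at 0.0018 and *Sall4* at 0.06. The number of members called was 1 with the replicate block, 1 with voom and the block, and 0 to 2 on leaving out libraries. Over all genes, 1 was called lower and 7 higher in the fit without the block, 207 and 139 with the replicate block, 9 higher and 1 lower with voom, 424 lower and 228 higher with voom and the block, 984 lower and 867 higher without replicate 1, and 13 lower and 10 higher without CKO replicate 1. Quantile normalization called 1 lower and 13 higher, and taking out globin genes 0 and 4. The cause of these differences was not tested. The replicate block changed no call of the other 5 members. With 3 libraries a group, an exact test cannot go below p = 0.1, and *Isl1* rested on the fewest reads, 177 to 257 a library.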
